A study of Mus musculus with 26 samples.

Results

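The genes described here are 10 genes of red pulp macrophages and iron recycling, chosen by symbol out of the 56392 genes of the deposited table: Spic, Vcam1, Hmox1, Slc40a1, Cd5l, Cd163, Adgre1, C1qa, C1qb and C1qc. RNA was sequenced from the spleens of female BALB/c mice aged 8 weeks, and the 26 libraries carry 5 codes. MM and MN (5 libraries each) came from mice given ovalbumin (OVA, the main protein of egg white) together with the miR-676-3P mimic. OS (6 libraries) and ON (5 libraries) came from mice given OVA alone, and CT (5 libraries) from mice given saline. OVA at 0.05 mg per day or saline was injected into the peritoneum on days 1, 3 and 5. The mimic, 7 mg per kg of body weight, followed the second OVA dose on day 3 through the caudal vein. The labels name 20 mice per group, do not explain what separates OS from ON or MM from MN, and do not state that the libraries are separate mice. The p-values below therefore measure the spread between these libraries, which may be technical in part. The labels name no control mimic.

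Red pulp macrophages are the resident macrophages of the splenic red pulp, where they engulf aged red blood cells and return the iron of their hemoglobin to the circulation. Heme released from hemoglobin is broken down by heme oxygenase 1, and the freed iron is stored in ferritin or leaves the cell through ferroportin. Their development depends on the transcription factor Spi-C, whose gene Spic is itself induced by heme. C1qa, C1qb and C1qc encode the chains of C1q, the recognition molecule of the classical complement pathway, which tissue macrophages produce.

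The C1q genes lie side by side. On the genome build of the deposited table, which it does not name, C1qb occupies chromosome 4 from 136607440 to 136613498, C1qc from 136617115 to 136620376 and C1qa from 136623228 to 136626114, all on the minus strand. The other members are spread over the genome: Spic on chromosome 10 (88510634 to 88520877, minus strand), Vcam1 on chromosome 3 (115903598 to 115923337, minus), Cd5l on chromosome 3 (87265188 to 87278380, plus), Hmox1 on chromosome 8 (75820249 to 75827217, plus), Slc40a1 on chromosome 1 (45947228 to 45965683, minus), Cd163 on chromosome 6 (124281615 to 124307486, plus) and Adgre1 on chromosome 17 (57665691 to 57790527, plus). All are protein-coding. Vcam1 alone overlaps another gene of the table, the lncRNA Gm43109 on the opposite strand, which reached at most 0.835 FPKM.

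Promoter sequences from RefSeq (build GRCm38.p6, 250 bases before the gene's start to 50 after it) were at hand for 5 of the 10 members. Those of C1qb, C1qc, Cd163 and Spic are printed because the levels of the first pair moved together across libraries, while Cd163 and Spic each followed another pattern. Capitals mark matches, on either strand, to GAGGAA (a core bound by PU.1 and Spi-C), TGCTGA (a half-site of Maf and Bach factors) and TGACNNNGC (an antioxidant response element core), and matches of the last 2 motifs may share letters.
C1qb, chr4:136886151-136886450, minus strand: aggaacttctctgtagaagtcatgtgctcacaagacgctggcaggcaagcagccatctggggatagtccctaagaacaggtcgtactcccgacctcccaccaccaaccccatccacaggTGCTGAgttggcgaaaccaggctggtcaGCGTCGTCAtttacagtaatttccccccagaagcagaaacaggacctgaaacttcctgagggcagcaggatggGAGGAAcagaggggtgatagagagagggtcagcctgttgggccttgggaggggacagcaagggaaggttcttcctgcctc
C1qc, chr4:136892865-136893164, minus strand: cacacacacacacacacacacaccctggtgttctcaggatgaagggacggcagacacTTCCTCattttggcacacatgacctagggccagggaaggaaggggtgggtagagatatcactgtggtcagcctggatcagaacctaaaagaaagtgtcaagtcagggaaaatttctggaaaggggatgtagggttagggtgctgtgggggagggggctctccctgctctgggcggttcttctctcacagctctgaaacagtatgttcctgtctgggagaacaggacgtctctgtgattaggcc
Cd163, chr6:124304401-124304700, plus strand: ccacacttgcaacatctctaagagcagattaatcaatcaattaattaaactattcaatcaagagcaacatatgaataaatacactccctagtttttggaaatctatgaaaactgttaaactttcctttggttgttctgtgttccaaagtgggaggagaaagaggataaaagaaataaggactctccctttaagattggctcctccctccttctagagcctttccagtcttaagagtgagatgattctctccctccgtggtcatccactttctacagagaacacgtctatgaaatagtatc
Spic, chr10:88682974-88683273, minus strand: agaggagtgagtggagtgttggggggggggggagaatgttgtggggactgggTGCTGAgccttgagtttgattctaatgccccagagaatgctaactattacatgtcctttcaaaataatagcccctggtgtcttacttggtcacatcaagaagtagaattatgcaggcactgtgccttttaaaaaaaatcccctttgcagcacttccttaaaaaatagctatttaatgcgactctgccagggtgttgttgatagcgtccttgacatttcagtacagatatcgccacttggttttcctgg
The C1qb promoter held 1 match to each motif, at -131 for TGCTGA, -103 for TGACNNNGC and -30 for GAGGAA, counted from the gene's start to the first base of the match. The C1qc promoter held 1 match to GAGGAA at -193, the Spic promoter 1 match to TGCTGA at -198, and the Cd163 promoter none. Of 32851 mouse promoters of this length, 28.3% held GAGGAA, 19.5% TGCTGA and 12.4% TGACNNNGC, so single matches are common and are given as a description of the letters only.

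Levels are given in FPKM, fragments counted relative to the size of the library and the length of the gene, so that genes of different length can be set beside each other. All 10 members were well above the detection limit in all 26 libraries: the lowest value, 6.89 FPKM for Cd163 in OS 4, rested on 569 reads, and the libraries held 14224832 to 18113989 reads. By the median over libraries the order was Hmox1 (309 FPKM), C1qa (303), C1qb (176), C1qc (126), Vcam1 (100.2), Slc40a1 (71.6), Cd5l (46.7), Spic (41.2), Adgre1 (28.0) and Cd163 (16.9). Hmox1 and C1qa were not separated, Hmox1 being higher in 16 of 26 libraries, and C1qc exceeded Vcam1 in 18 of 26. C1qb exceeded C1qc, and Adgre1 exceeded Cd163, within 26 of 26 libraries, although the ranges of neighbouring genes overlapped throughout the order. The spread differed by gene: the highest library stood at 3.92 times the lowest for Cd163, 3.85 times for C1qa and 3.52 times for Adgre1, but 2.12 times for Slc40a1 and 2.16 times for Vcam1.

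**Figure D1:**
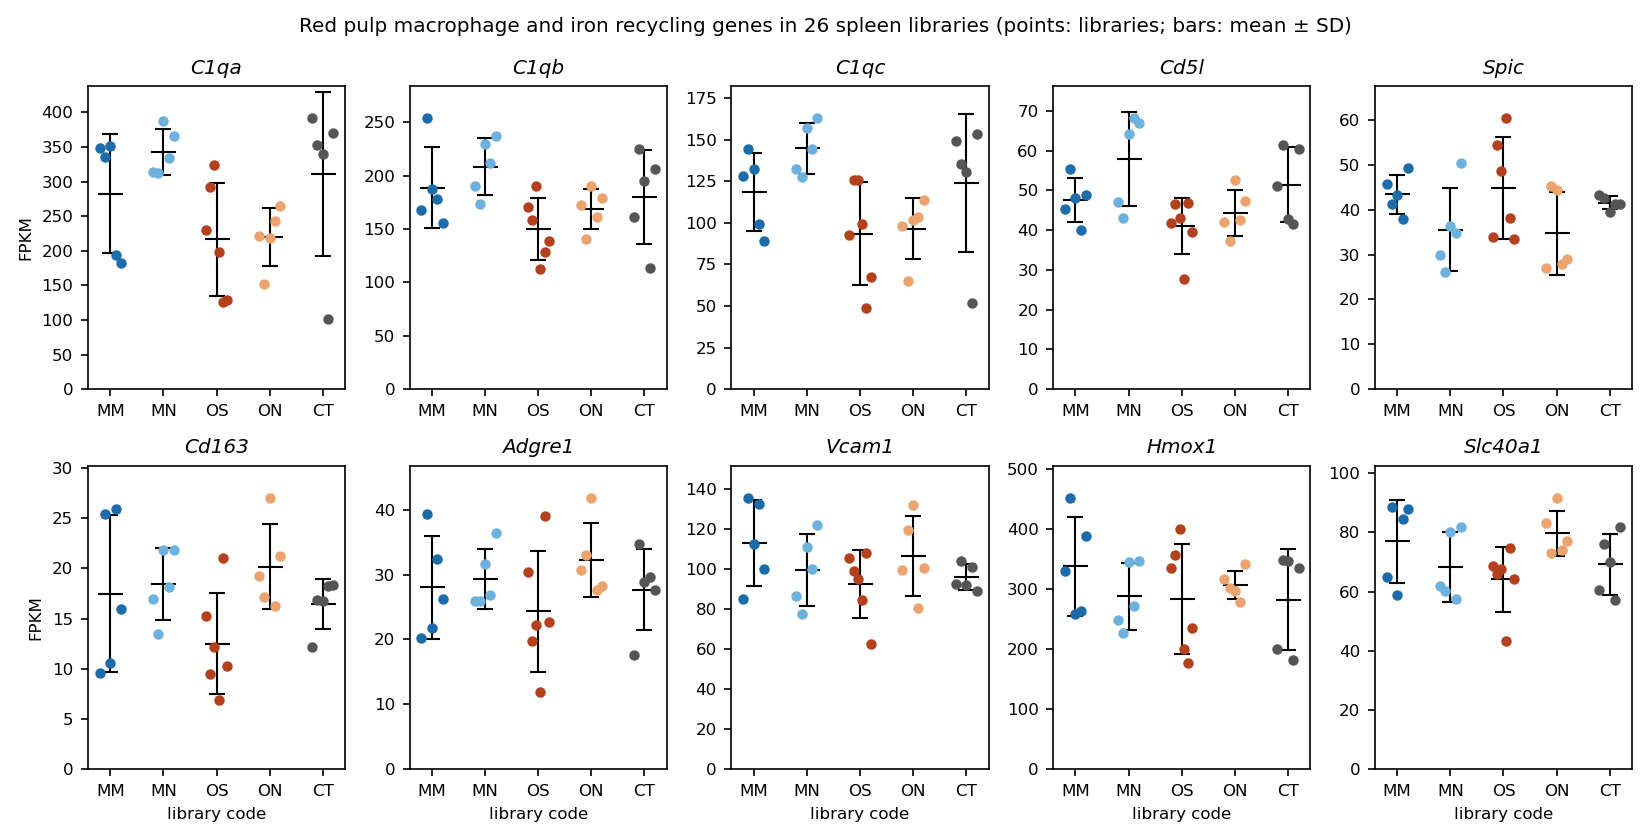
FPKM of the 10 genes on a linear axis from 0, by library code (MM and MN, OVA with the mimic; OS and ON, OVA; CT, saline); each point is a library, and bars give mean ± SD. C1qa and C1qc of CT 4 (102 and 51.9 FPKM) lie far below the other CT libraries, and Spic spans only 39.5 to 43.3 FPKM in CT.

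The labelled tissue matched its markers, with 3 libraries also holding pancreatic RNA. Pancreas markers reached 28.7% of the reads of library ON 2, 14.3% of those of MM 2 and 4.32% of those of ON 3, and no more than 0.00407% elsewhere. The mitochondrial share was 6.62% for CT 4, whereas no other library exceeded 2.39%. B cell markers summed to 474 to 1227 FPKM and T cell markers to 89.7 to 233 FPKM per library. Markers of Kupffer cells, the macrophages of the liver, were close to absent (summed level of 3 genes 0.254 to 2.75 FPKM), while Marco, Cd209b and Siglec1 of the marginal zone macrophages, the other large macrophage population of the spleen, summed to 35.8 to 102 FPKM. In RNA from whole spleen, fewer macrophages and less RNA per macrophage cannot be told apart.

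No member passed the test in any of the 5 comparisons made. Each comparison was fitted with limma on log2(FPKM + 1) over 15672 genes, with Benjamini-Hochberg adjustment and a threshold of 0.05. OVA against saline called 0 of 10 members, with 2.17% of all genes called. OVA with mimic against OVA and OVA with mimic against saline called 0 of 10 members and 0% of all genes each. At an unadjusted p under 0.05 they held 1590 and 1053 genes, and limma voom on the recovered reads called 0 genes in both. OS against ON called 0 of 10 members, with 0.185% of all genes called, and MM against MN 0 of 10, with 0.172%. At an unadjusted p under 0.05, members counted 0 in OVA against saline (16.3% of all genes), 4 in OVA with mimic against OVA (10.1%), 0 in OVA with mimic against saline (6.72%), 4 in OS against ON (10.6%) and 0 in MM against MN (7.25%). The comparisons share libraries, so their values are set side by side below and are not independent of each other.

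The C1q genes and Cd5l had the largest differences between mice given the mimic with OVA and mice given OVA alone, all toward higher levels with the mimic, and none passed the adjusted test. C1qa encodes the A chain of C1q. C1qa had 349, 336, 352, 194 and 183 FPKM in MM 1 to MM 5 and 314, 313, 387, 334 and 366 FPKM in MN 1 to MN 5. In OS it had a lowest value of 126, a median of 214 and a highest value of 324 FPKM, and in ON 1 to ON 5 it had 222, 152, 219, 243 and 264 FPKM. The groups overlapped: 6 of 10 mimic libraries lay above the highest OVA library, and MM 4 and MM 5 lay below the OVA mean. C1qa averaged 313 ± 69.2 FPKM in OVA with mimic (SD, n = 10) and 218 ± 63.9 FPKM in OVA (n = 11), a log2 difference of 0.54 ± 0.22 (SE; 95% interval 0.09 to 0.99; limma p = 0.0216, adjusted p = 0.410).

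C1qc, the C chain, had 128, 144, 132, 99.0 and 88.8 FPKM in MM 1 to MM 5 and 132, 128, 157, 145 and 163 FPKM in MN 1 to MN 5. In OS it had a lowest value of 49.0, a median of 96.0 and a highest value of 126 FPKM, and in ON 1 to ON 5 it had 98.3, 65.2, 102, 103 and 114 FPKM. Of the 10 mimic libraries, 8 lay above the highest OVA library, and the other 2 were again MM 4 and MM 5. C1qc averaged 132 ± 23.2 FPKM in OVA with mimic and 94.8 ± 24.8 FPKM in OVA (log2 difference 0.50 ± 0.18, limma adjusted p = 0.376). C1qb, the B chain, averaged 199 ± 32.7 FPKM in OVA with mimic and 159 ± 25.6 FPKM in OVA, with a log2 difference of 0.32 ± 0.12 (limma adjusted p = 0.385) and 9 of 10 mimic libraries above the OVA mean.

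Cd5l encodes a secreted scavenger-type protein of tissue macrophages. Cd5l averaged 52.7 ± 10.3 FPKM in OVA with mimic and 42.5 ± 6.46 FPKM in OVA (log2 difference 0.29 ± 0.11, limma adjusted p = 0.374), and 4 of 10 mimic libraries exceeded the highest OVA library. Those 4 were MM 2 at 55.4 FPKM and MN 3, MN 4 and MN 5 at 64.2, 68.1 and 66.8 FPKM. At an unadjusted p under 0.05, these 4 of 10 members were higher with the mimic, and so were 5.4% of all genes tested. The 4 are not independent of each other. Over all libraries the C1q genes correlated at r = 0.78 to 0.97, and Cd5l with C1qb at 0.77. The other 6 members differed by 0.01 (Spic) to 0.15 (Cd163) on the log2 scale, and the members' median was 0.12 against 0.00 over all genes tested.

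Markers of other cell types also had different means in the same comparison. Dendritic cell markers had a median log2 difference of 0.12, with 7 of 7 above 0. It was 0.21 for T cell markers and 0.09 for B cell markers, with 5 of 6 above 0 in each, and none passed. Neutrophil markers had a median log2 difference of -0.81, with 8 of 8 below 0 and none passing the test. Their summed level was 907 to 4645 FPKM in MM (median 1121) and 1106 to 7658 FPKM in MN (median 3687). It was 2107 to 7063 FPKM in OS (median 4687) and 2417 to 5770 FPKM in ON (median 3702). In MM against MN the neutrophil markers had a median log2 difference of -0.94, with 8 of 8 below 0, so the 2 mimic codes also differed. Marco, the scavenger receptor of marginal zone macrophages, averaged 50.2 ± 14.4 FPKM in OVA with mimic and 38.3 ± 14.1 FPKM in OVA (log2 difference 0.42 ± 0.19, limma adjusted p = 0.466). The 3 markers listed for the marginal zone, Marco among them, lay between 0.02 and 0.42, with a median of 0.03. The part of these cell types in the C1q values was not tested. Without the 3 libraries holding pancreatic RNA the log2 differences of C1qa, C1qc, C1qb and Cd5l were 0.42, 0.38, 0.25 and 0.27.

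Between OVA and saline, C1qa averaged 218 ± 63.9 FPKM in OVA and 311 ± 119 FPKM in saline (log2 difference -0.42 ± 0.27, limma adjusted p = 0.468). The saline values were 391, 352, 340, 102 and 370 FPKM in CT 1 to CT 5, so that CT 4 lay below all 11 OVA libraries and the other 4 lay above all of them. C1qc had 149, 135, 130, 51.9 and 153 FPKM in CT 1 to CT 5, again with the libraries other than CT 4 above all 11 OVA libraries, and a log2 difference of -0.34 ± 0.22. With CT 4 included, OVA and saline overlapped for both genes. How many of all genes separate once CT 4 is set aside was not counted, so whether this separation is unusual cannot be told. The 16 fits of this comparison that each left out 1 library called 152 to 486 of all genes. Without CT 4, the library with 6.62% mitochondrial reads, the difference was -0.79 for C1qa (adjusted p = 0.0562) and -0.62 for C1qc (adjusted p = 0.0808), and it was -0.31 for C1qb against -0.16 with all libraries. Neutrophil markers had a median log2 difference of 0.72 in OVA against saline, with 8 of 8 above 0, and summed to 2107 to 7063 FPKM in OS, 2417 to 5770 FPKM in ON and 1368 to 7944 FPKM in CT. Adipocyte markers had a median of -0.71, with 5 of 5 tested below 0, and summed to 2.00 to 26.8 FPKM in OS, 1.53 to 35.8 FPKM in ON and 1.38 to 59.2 FPKM in CT. Marco averaged 38.3 ± 14.1 FPKM in OVA and 54.7 ± 5.77 FPKM in saline (log2 difference -0.60 ± 0.24, limma adjusted p = 0.201). Of the 3 markers listed for the marginal zone, 2 lay above 0, and the median of the 3 was 0.09. None of the neutrophil, adipocyte or marginal zone macrophage markers passed the test. The part of the mitochondrial reads and of these cell types in the C1q values was not tested.

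Cd5l averaged 42.5 ± 6.46 FPKM in OVA and 51.5 ± 9.34 FPKM in saline (log2 difference -0.26 ± 0.13, limma adjusted p = 0.327). The other 6 members lay between -0.11 (Spic) and 0.09 (Hmox1) on the log2 scale, with 7 of 10 members below 0 and a members' median of -0.10 against 0.01 over all genes. In OVA with mimic against saline the 10 differences lay between -0.10 (Spic) and 0.17 (Hmox1). C1qa averaged 313 ± 69.2 FPKM in OVA with mimic and 311 ± 119 FPKM in saline, with a 95% interval from 0.732 to 1.60 times the saline level. Without CT 4 that log2 difference was -0.25, against 0.11 with all libraries.

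**Figure D2:**
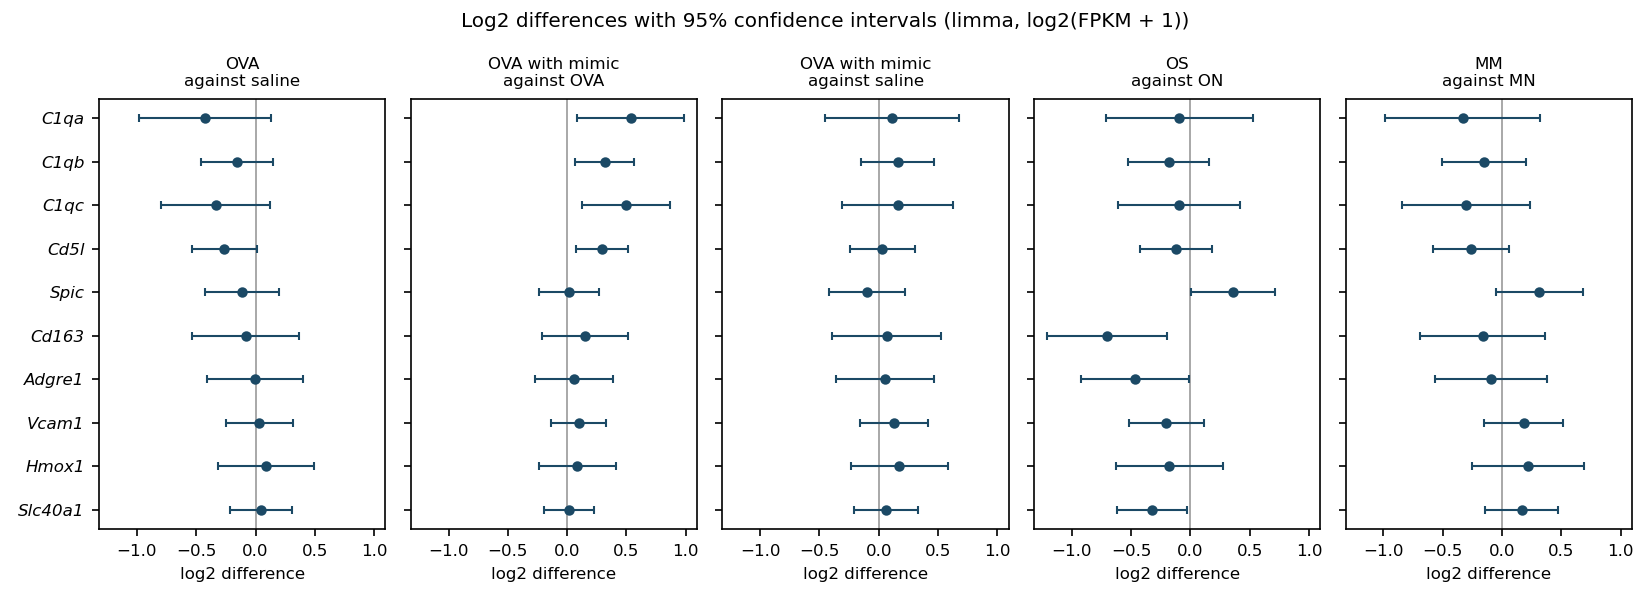
Log2 differences of the 10 genes in the 5 comparisons (x axis, log2(FPKM + 1) scale; the first-named group minus the second), with 95% confidence intervals from limma. Intervals of C1qa, C1qb, C1qc and Cd5l lie above 0 in OVA with mimic against OVA. In OS against ON those of Cd163, Adgre1 and Slc40a1 lie below 0 and that of Spic above 0. None of these genes passed after adjustment.

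Within the OVA treatment, Cd163, Adgre1 and Slc40a1 had lower means in OS than in ON and Spic a higher one, and none of them passed the adjusted test. Cd163, the scavenger receptor for hemoglobin bound to haptoglobin, had a lowest value of 6.89, a median of 11.2 and a highest value of 21.0 FPKM in OS. In ON 1 to ON 5 it had 19.3, 17.1, 27.0, 16.3 and 21.3 FPKM. Of the 6 OS libraries 5 lay below the lowest ON library, and OS 5 lay inside the ON range. Cd163 averaged 12.5 ± 5.02 FPKM in OS and 20.2 ± 4.27 FPKM in ON (SD), a log2 difference of -0.70 ± 0.24 (95% interval -1.21 to -0.20; limma adjusted p = 0.267).

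Adgre1 encodes F4/80, the surface receptor by which mouse red pulp macrophages are commonly recognised. Its lowest value, median and highest value in OS were 11.9, 22.5 and 39.1 FPKM, against 30.7, 33.0, 41.8, 27.7 and 28.2 FPKM in ON 1 to ON 5. The OS libraries reached lower than any ON library in 4 of 6 cases, and OS 5 was again high. Adgre1 averaged 24.3 ± 9.36 FPKM in OS and 32.3 ± 5.72 FPKM in ON (log2 difference -0.46 ± 0.22, limma adjusted p = 0.459), and without OS 4 the difference was -0.29. Slc40a1, encoding the iron exporter ferroportin, averaged 64.1 ± 10.8 FPKM in OS and 79.7 ± 7.64 FPKM in ON (log2 difference -0.33 ± 0.14, limma adjusted p = 0.414). All 6 OS libraries lay below the ON mean of Slc40a1 and 5 of them below the lowest ON library, with OS 4 lowest at 43.2 FPKM. Without OS 4 that difference was -0.22.

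Spic, the transcription factor gene, averaged 44.8 ± 11.3 FPKM in OS and 34.7 ± 9.25 FPKM in ON (log2 difference 0.36 ± 0.17, limma adjusted p = 0.458). Its values in ON 1 to ON 5 were 27.0, 45.3, 44.3, 27.9 and 29.0 FPKM. The 2 high ones, ON 2 and ON 3, are the ON libraries with pancreatic RNA. In ON 2 the FPKM imply a library size of 0.712 times the recovered reads. Its Spic value rested on 1936 of 15629615 reads, that of ON 3 on 2809 of 16837855 and that of ON 1 on 1693 of 14581525. Without the libraries holding pancreatic RNA the difference was 0.62 (adjusted p = 0.132), and that of Vcam1 was -0.03, against -0.20 with all libraries. Across all genes tested 5.74% were higher and 4.84% lower in OS at an unadjusted p under 0.05, against 1 and 3 of the 10 members. The 3 lower members are not independent of each other, with r = 0.76 to 0.90 over all libraries. The members' median was -0.18 and that of all genes 0.01. The part of the pancreatic RNA in these values was not tested.

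Hmox1, the enzyme that opens the heme ring, had the highest median level among the members and a wide spread within codes. Hmox1 had 329, 451, 259, 263 and 388 FPKM in MM 1 to MM 5 and 248, 227, 345, 271 and 347 FPKM in MN 1 to MN 5. It ran from 176 to 399 FPKM in OS (median 285), from 279 to 341 FPKM in ON (median 301) and from 181 to 348 FPKM in CT (median 334). The 5 codes overlapped. Its log2 difference was 0.09 ± 0.16 in OVA with mimic against OVA (limma adjusted p = 0.868) and 0.22 ± 0.23 in MM against MN (limma adjusted p = 0.954). The first was 0.03 without OS 5, and the second 0.11 without MM 2, a library with pancreatic RNA.

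Vcam1 encodes an adhesion molecule of red pulp macrophages that endothelium and stroma also make. It ran from 62.9 FPKM in OS 6 to 136 FPKM in MM 2, and its log2 differences lay between -0.20 (OS against ON; -0.10 without OS 6) and 0.18 (MM against MN; 0.10 without MN 2). The 13 endothelium and stroma markers summed to 361 to 1078 FPKM in MM, 694 to 784 FPKM in MN, 457 to 973 FPKM in OS, 425 to 735 FPKM in ON and 437 to 842 FPKM in CT, which also overlapped. In MM against MN the 10 members lay between -0.33 (C1qa; -0.19 without MM 5) and 0.31 (Spic). Spic averaged 43.4 ± 4.34 FPKM in MM and 35.5 ± 9.21 FPKM in MN (limma log2 difference 0.31 ± 0.18), and C1qa averaged 283 ± 86.2 FPKM in MM and 343 ± 32.9 FPKM in MN.

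Across the 26 libraries C1qa and C1qc varied together, and so did Cd163, Adgre1 and Slc40a1, while the first set had little relation to the second. These sets were drawn after their values were seen. All 45 pairs were correlated on log2(FPKM + 1), and 21 had a permutation p under 0.05 after Benjamini-Hochberg adjustment. C1qa and C1qc had a Pearson r of 0.97 (Spearman rho 0.95; both permutation p = 1e-05, the smallest that 100000 permutations can give; adjusted 0.000113 and 0.000225). Without CT 4 and OS 5, the libraries farthest from the median of C1qa, r was 0.97, and within codes it was 0.96. The ratio of C1qa to C1qc stayed between 1.89 in OS 6 and 2.72 in MM 1. C1qb kept less closely to them, with r = 0.78 with C1qa (rho 0.71, adjusted permutation p = 0.000113 and 0.00055; 0.69 without CT 4 and OS 5; 0.73 within codes), and the ratio of C1qa to C1qb ran from 0.893 in CT 4 to 2.43 in CT 1.

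Cd163 and Adgre1 had r = 0.90 (rho 0.85, permutation p = 1e-05 each, adjusted 0.000113 and 0.000225), 0.85 without OS 4 and OS 2 and 0.89 within codes. Slc40a1 had r = 0.78 with Adgre1 and 0.76 with Cd163 (adjusted permutation p = 0.000113 and 0.000193). Leaving out OS 4 and ON 3, these were 0.61 and 0.63, and within codes 0.77 each. The ratio of Cd163 to Adgre1 ran from 0.455 in OS 6 to 0.797 in MM 4.

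Between the sets, r ran from -0.15 (C1qc with Adgre1) to 0.07 (C1qc with Slc40a1). C1qa had r = -0.05 with Cd163 (rho -0.03, adjusted permutation p = 0.886 and 0.979; -0.11 without OS 4 and OS 2; -0.24 within codes) and r = -0.12 with Adgre1. The ratio of C1qa to Cd163 ran over 6.57 times, from 5.57 in CT 4 to 36.6 in MM 1. It was 7.50 to 36.6 in MM, 16.8 to 23.3 in MN, 5.99 to 30.9 in OS, 8.11 to 15.0 in ON and 5.57 to 32.0 in CT. MN and ON were each narrow and did not overlap, while MM, OS and CT each spanned most of the range. The contrast of MN with ON was picked out after the values were seen and was not tested. These codes also differ in treatment.

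**Figure D3:**
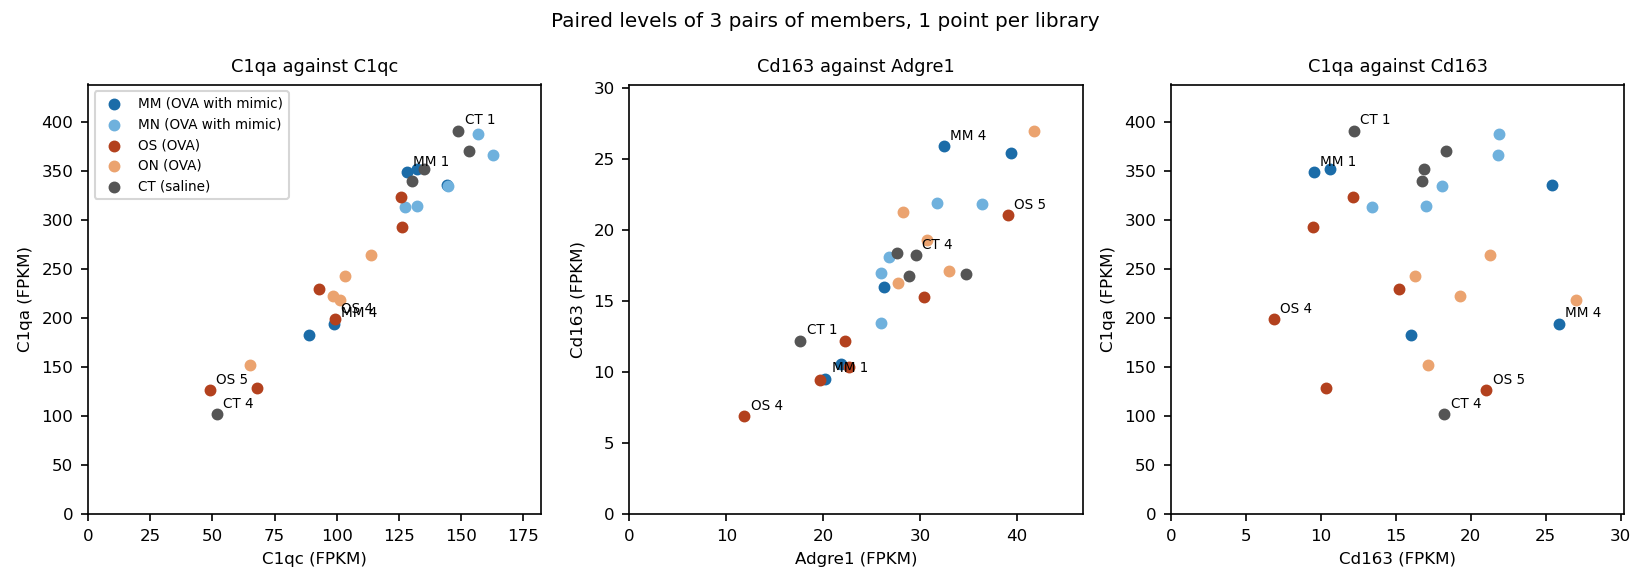
Levels of C1qa against C1qc, Cd163 against Adgre1 and C1qa against Cd163, in FPKM on linear axes from 0, with 1 point per library coloured by code and 6 libraries named. The first 2 pairs lie along a line (r = 0.97 and 0.90), and the last shows no slope (r = -0.05), with MM 1 and CT 4 at opposite ends of the C1qa to Cd163 ratio.

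For C1qb, Cd5l and Hmox1 several values changed when the 2 most extreme libraries were left out. Leaving these out narrows the range of values, which can lower r by itself. Cd5l had r = 0.77 with C1qb (0.71 without OS 4 and MN 4) and 0.56 with C1qa (0.59 without them). With Cd163, Adgre1 and Slc40a1 it had r = 0.49, 0.48 and 0.45, and within codes 0.45, 0.49 and 0.64. Without OS 4 and MN 4 the first 2 were 0.32 and 0.27, and without OS 4 and ON 3 the last was 0.19. C1qb had r = 0.46 with Cd163, 0.44 with Adgre1 and 0.51 with Slc40a1, against 0.30, 0.22 and 0.36 without the 2 farthest. By rank, rho was 0.50 with Cd163 (adjusted permutation p = 0.0312), 0.39 with Adgre1 (0.133) and 0.41 with Slc40a1 (0.113). Hmox1 had r = 0.68 with C1qb and 0.60 with Slc40a1 (0.55 and 0.67 without OS 5 and CT 4), and 0.23 with Cd163 and 0.28 with Adgre1 (0.41 and 0.53 without them). Without OS 5 and CT 4, r of Hmox1 was 0.21 with C1qa and 0.18 with C1qc, against 0.49 and 0.51 with all libraries. Within codes, r of Hmox1 was 0.59 with C1qa and 0.61 with C1qc. Vcam1 had r = 0.65 with Cd163 and 0.60 with Adgre1, and 0.05 with C1qa. Spic followed no other member: its r lay between -0.34 (Cd163) and 0.29 (Vcam1), and none of its 9 pairs had an adjusted permutation p under 0.05.

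**Figure D4:**
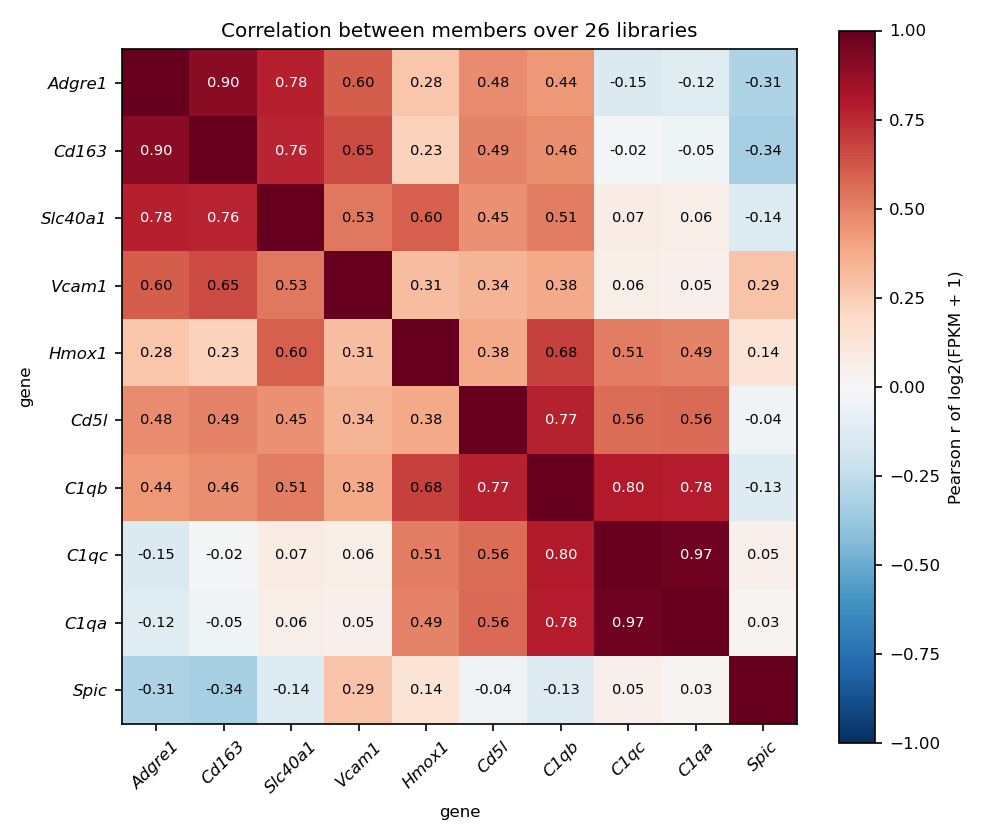
Pearson r between the 10 genes over 26 libraries, on log2(FPKM + 1); red is positive and blue negative. Adgre1, Cd163 and Slc40a1 form a block of 0.76 to 0.90 and C1qa, C1qb and C1qc a block of 0.78 to 0.97, and Spic stays between -0.34 and 0.29.

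A measure of the libraries moved with both sets, in opposite directions. Ribosomal protein genes took 2.40% of reads in ON 2 to 6.85% in CT 1. The share is of all recovered reads, pancreatic ones included, and these were 28.7% of ON 2 and 14.3% of MM 2. Without the 3 libraries holding pancreatic RNA, r with the share was -0.53 for Adgre1, -0.54 for Slc40a1 and -0.48 for Cd163. It was 0.48 for C1qa and 0.44 for C1qc. Over all 26 libraries the share had r = -0.61 with Adgre1 (rho -0.69; permutation p adjusted over 10 relations 0.0066 and 0.0012), -0.59 with Slc40a1 (rho -0.61; 0.0075 and 0.00535) and -0.54 with Cd163 (rho -0.53; 0.0154 and 0.016). It had r = 0.47 with C1qa (rho 0.53; 0.0402 and 0.016) and 0.44 with C1qc (rho 0.45; 0.0518 and 0.0412), and 0.00 with C1qb. Without ON 2 and MM 2, the libraries farthest from its median, r was -0.57 for Adgre1, -0.58 for Slc40a1, -0.53 for Cd163, 0.49 for C1qa and 0.44 for C1qc. Within codes r was -0.76 for Adgre1, -0.64 for Slc40a1, -0.75 for Cd163, 0.38 for C1qa and 0.35 for C1qc, and without CT 4 it was 0.69 for C1qa. The share ran from 3.01% to 6.75% in MM, from 4.64% to 5.46% in MN, from 3.38% to 5.79% in OS, from 2.40% to 3.96% in ON and from 5.20% to 6.85% in CT. Its part in the differences of Cd163, Adgre1 and Slc40a1 between OS and ON, and in those of the C1q genes between treatments, was not tested.

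**Figure D5:**
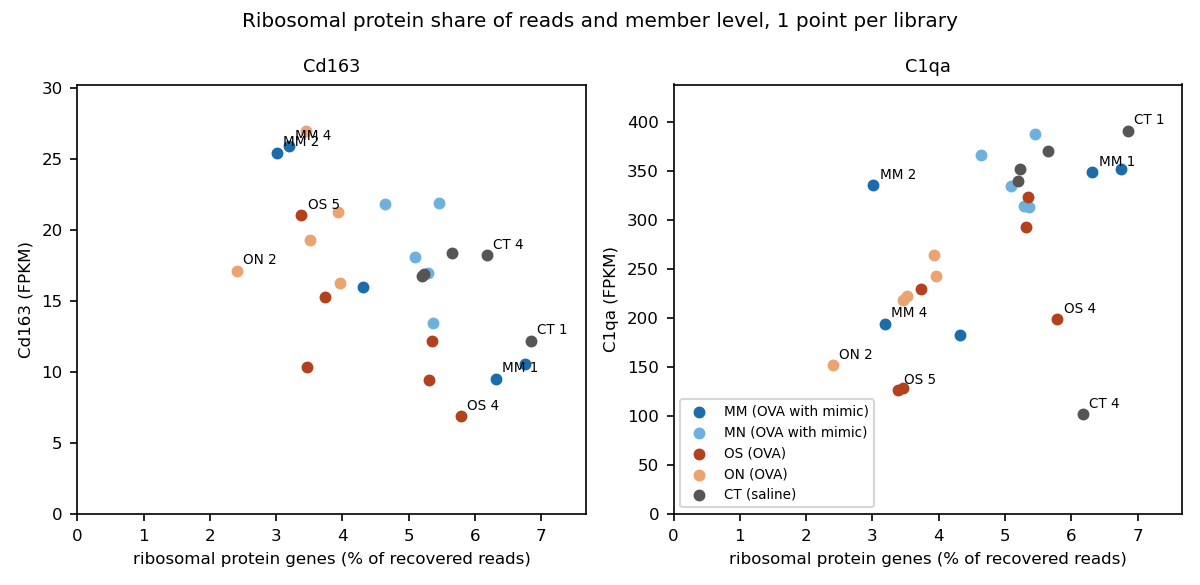
Level of Cd163 and of C1qa (FPKM) against the share of recovered reads on ribosomal protein genes (%), linear axes from 0, with 1 point per library coloured by code. Cd163 is lower where the share is higher (r = -0.54), C1qa is higher (r = 0.47), and CT 4 lies apart at a share of 6.18% with 102 FPKM of C1qa.

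The genes whose levels most resembled the mean of the 10 members over the 26 libraries, among 11325 protein-coding genes other than the members, were Cd300a (r = 0.86), Fcna (0.86), Itgad (0.85), Fcgrt (0.83), Gpd1 (0.81), Hfe (0.81), Itpripl2 (0.79), Sdc3 (0.77), Pla2g15 (0.77) and Ppfia4 (0.76). Within codes these values were 0.81, 0.84, 0.84, 0.78, 0.77, 0.81, 0.77, 0.72, 0.73 and 0.68. Itgad encodes the CD11d integrin chain and Fcna a ficolin, and Hfe a regulator of iron uptake. With the members themselves left out, the nearest genes to single members differed between the sets: Csf1r, the receptor for macrophage colony stimulating factor, was nearest to both Cd163 (r = 0.91) and Adgre1 (r = 0.94), and Oaz2 was nearest to both C1qa (r = 0.96) and C1qc (r = 0.95). Apoe, the lipid carrier that macrophages secrete, was the second nearest non-member to C1qa (r = 0.94), and Serf2 the third (0.93). For C1qc the next after Oaz2 were Zbtb7b (0.946) and Serf2 (0.945). Fcna was the nearest to C1qb (r = 0.91). Slc7a7 was nearest to Slc40a1 (r = 0.87), Fcgr1 to Cd5l (r = 0.81), Pld3 to Hmox1 (r = 0.79), Ginm1 to Spic (r = 0.78) and Tent5a to Vcam1 (r = 0.77).

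None of the other genes of the pathway passed the test in any of the 5 comparisons. Of 32 genes of heme and iron handling 29 were tested, and Flvcr2, Heph and Hpx fell below the filter on low values. In OVA with mimic against OVA 7 of the 29 lay above 0 and 22 below, with a median log2 difference of -0.07, and in OVA against saline 13 lay above and 16 below, with a median of -0.0033. Ftl1, the ferritin light chain, averaged 786 ± 156 FPKM in OVA with mimic and 823 ± 193 FPKM in OVA. Fth1, the ferritin heavy chain, averaged 407 ± 60.5 FPKM in OVA with mimic, 459 ± 82.9 FPKM in OVA and 546 ± 306 FPKM in saline.

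Of 28 other macrophage genes 27 were tested (Trem2 was not). In OVA with mimic against OVA 23 of 27 lay above 0, with a median log2 difference of 0.07, and in OS against ON 19 of 27 lay below 0, with a median of -0.08. The most abundant were Lyz2, the macrophage and neutrophil lysozyme, at 1083 ± 169 FPKM in OVA with mimic and 1184 ± 166 FPKM in OVA, and Ctsb, a lysosomal protease, at 232 ± 18.8 FPKM in OVA with mimic and 230.2 ± 23.4 FPKM in OVA. Of 17 other complement genes 14 were tested (C3ar1, Cfb and Vsig4 were not), and 10 of 14 lay above 0 in OVA with mimic against OVA, with a median of 0.09. C3, the central complement component, averaged 161 ± 18.4 FPKM in OVA with mimic and 151 ± 31.6 FPKM in OVA, and Calr, which encodes calreticulin, a partner of C1q, averaged 166 ± 19.8 FPKM in OVA with mimic and 155 ± 18.1 FPKM in OVA.

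Of 9 genes of Vcam1 partners and adhesion 8 were tested (Sele was not), with 5 of 8 above 0 in OVA with mimic against OVA. Itgb1, a chain of the integrin that binds Vcam1, averaged 86.6 ± 5.25 FPKM in OVA with mimic and 94.0 ± 9.92 FPKM in OVA, and Itgb7, another such chain, 61.8 ± 11.02 FPKM in OVA with mimic and 51.4 ± 8.25 FPKM in OVA. The mouse spleen also makes red blood cells, whose precursors handle heme. The 10 erythroid markers had a median log2 difference of -0.24 in OVA against saline, with 9 of 10 below 0, and of -0.38 in OVA with mimic against saline, with 10 of 10 below 0 and none passing. They summed to 22004 to 33574 FPKM in MM, 30017 to 73101 FPKM in MN, 22194 to 59229 FPKM in OS, 14766 to 42517 FPKM in ON and 40755 to 75302 FPKM in CT. Hmox1, Slc40a1 and Spic lay between -0.11 and 0.17 in those 2 comparisons, and the part of the red cell precursors was not tested.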

How the data were processed

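Poly(A)-selected RNA of mouse spleen was sequenced, per the labels' protocols. The authors deposited a table of FPKM per gene for 26 libraries. Per the submitters' processing notes, edgeR 3.24.3, DESeq2 1.20.0, featureCounts 1.5.0-p3, StringTie 1.3.3b, HISAT2 2.0.5 and CASAVA were among the tools, without a stated role. For the genome build, the sources used here give none. In each library 100% of the products of FPKM and gene length were whole multiples of 1 step (tolerance 0.05), which gave the reads and depth. The precision this gives covers counting error only. The 15672 genes reaching 1 FPKM in 5 or more libraries were fitted with limma 3.58.1 in R 4.3.3 on log2(FPKM + 1), a scale that understates changes of low genes, with 1 mean per code over all libraries and a variance trend. Treatment contrasts average the means of both codes of a treatment. Group means ± SD are over the pooled libraries. The fit was tested on simulated data first. Correlations used 100000 permutations (scipy 1.17.1). Voom on the recovered reads, another pseudocount (0.1), filter, scaling and fit designs, and leaving out libraries, were the alternatives. All 10 members are named, with from each list up to 2 genes of highest mean FPKM where none passed, and the genes with the highest Pearson r. The members and lists were chosen with earlier results of these data known. Same-numbered libraries were not treated as pairs.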

Additional observations from a re-analysis of the deposited data

Results flagged for a closer look

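In 50 groups of members and codes, 4 held a library far from the rest, and chance alone marks about 1 group in 20. CT 4 had 102 FPKM of C1qa and 51.9 FPKM of C1qc, against nearest CT values of 340 and 130 FPKM. CT 1 had 12.2 FPKM of Cd163, against 16.7 FPKM in the nearest CT library. OS 4 had 43.2 FPKM of Slc40a1, against 64.4 FPKM in the nearest OS library.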

How the results depend on the processing

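No member passed the threshold in any of 1110 recomputed values, and the lowest adjusted p was 0.0562 (C1qa, OVA against saline without CT 4). The direction turned in 52 of them, all of differences of at most 0.16 on the log2 scale. Spic in OVA with mimic against OVA was -0.0249 with the replicate number as a block and -0.0039 with 1 mean per treatment, and C1qa in OS against ON was 0.0389 with the block. Without the libraries holding pancreatic RNA, Vcam1 was -0.0565 in OVA against saline, and Cd163 and Adgre1 were -0.013 and -0.0105 in OVA with mimic against saline. Leaving out single libraries gave these log2 ranges. In OVA against saline they were -0.0112 to 0.0832 for Vcam1, -0.0596 to 0.175 for Hmox1, -0.0172 to 0.111 for Slc40a1 and -0.15 to 0.0871 for Adgre1. In OVA with mimic against OVA they were -0.0533 to 0.0641 for Spic, -0.0387 to 0.0605 for Slc40a1 and -0.0327 to 0.131 for Adgre1. In OVA with mimic against saline they were -0.002 to 0.126 for Slc40a1, -0.0406 to 0.0974 for Cd5l, -0.0323 to 0.153 for Cd163, -0.093 to 0.141 for Adgre1, -0.253 to 0.231 for C1qa and -0.126 to 0.26 for C1qc. In OS against ON they were -0.227 to 0.0441 for C1qa and -0.228 to 0.0736 for C1qc, and in MM against MN -0.325 to 0.0132 for Cd163 and -0.223 to 0.0099 for Adgre1.

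The number of genes called over the whole table depended on the settings, and the cause was not tested. OVA against saline called 340 genes, 150 with no filter on low values, 184 with the replicate block, 129 with only the codes compared, 108 without the libraries holding pancreatic RNA and 87 with 1 mean per treatment. OS against ON called 29 genes, 17 with a pseudocount of 0.1, 6 with no filter, 3 with the block, 0 with only the codes compared (1658 at an unadjusted p under 0.05 in the fit of all codes, and 39 with voom on recovered reads) and 122 without the libraries holding pancreatic RNA. MM against MN called 27 genes, 7 with no filter and 129 with only the codes compared. Leaving out single libraries gave 152 to 486 genes in OVA against saline, 3 to 260 in OS against ON, 1 to 26 in MM against MN, 0 to 2 in OVA with mimic against OVA and 0 to 1 in OVA with mimic against saline. The deviations of same-numbered libraries correlated over 0.1 in 9 of 50 pairs (median -0.04, highest 0.36). They were not set beside those of differently numbered libraries, so these values do not settle whether the numbers mark pairs. No member was called with the block or without it.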
